A study of Mus musculus with 6 samples.

Results

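The nuclear-encoded subunit genes of oxidative phosphorylation were examined in mouse leukaemic bone marrow cells that carried an inducible N1-IC allele or lacked it. Members were genes with a probe set assigned to a single platform symbol beginning Nduf (followed by a, b, c, s or v and a number), Uqcr, Cox4 to Cox8 or Atp5, or equal to Sdha, Sdhb, Sdhc or Sdhd. For each gene the probe set with the highest mean log2 intensity over the 6 arrays was used. This gave 81 of 18194 measured genes, with 35 in complex I, 4 in complex II, 8 in complex III, 17 in complex IV and 17 in complex V.

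The study profiled RNA of sorted cells, named LGMP in the labels, on Affymetrix arrays, with 3 WT and 3 N1-IC samples. Both groups came from cKit+ cells infected with MLL-AF9-IRES-YFP, a leukaemia fusion gene with a fluorescent marker, and both carried one ROSA CreERT2 allele, whose Cre recombinase is activated by tamoxifen. WT donors were MLL-AF9 EF1α wt/wt ROSA wt/CreERT2 and labelled male. N1-IC donors were MLL-AF9 EF1α wt/lsl-N1-IC ROSA wt/CreERT2 and labelled female, so that sex and genotype cannot be told apart. N1-IC is the intracellular, active part of the Notch1 receptor, and a transgene behind an lsl cassette is expressed only where Cre has removed that cassette. In each group 50000 infected cells were given with 250000 wt support marrow cells to lethally irradiated wt recipients 12 weeks old. After 4 weeks all recipients received 2 injections of tamoxifen at 0.2 mg/g, and cells were taken 6 days after the last. Cells positive for YFP, CD34 and FcgRII/III were sorted from the lineage negative, cKit+ and Sca1- fraction. How many recipients gave each sample is not in the labels, so p-values cover only the spread among these samples, which may be technical in part.

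Oxidative phosphorylation couples the oxidation of nutrients to ATP synthesis at the inner mitochondrial membrane. Complexes I and II pass electrons from NADH and succinate to ubiquinone, complex III passes them to cytochrome c and complex IV passes them to oxygen, while complex V uses the resulting proton gradient to make ATP. Most subunits are encoded in the nucleus, and transcription factors such as NRF1, the GABP complex and YY1, with coactivators of the PGC-1 family, are known regulators of many of these genes.

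The 6 arrays had median log2 intensities of 5.63 to 5.67. Genes of granulocyte and monocyte progenitors (9 of 10 measured) had list means of 12.68 to 12.85. Mpo, the myeloperoxidase gene of primary granules, was at 13.80 to 14.11 and the receptor gene Csf3r at 8.95 to 9.14. The measured genes of the sort gate (Kit, Cd34, Fcgr3 and Fcgr2b) had list means of 11.72 to 11.97 on the WT arrays and 11.35 to 11.70 on the others, and Cd34 was the one of them lower without overlap. Their part in the results was not tested. Nrarp, a Notch target, was at 7.22, 6.96 and 6.41 in WT and 8.01, 9.74 and 11.33 in N1-IC, without overlap. The array of WT replicate 2 stood apart in 2 respects. Erythroid genes were high on it, among them the erythroid factor gene Klf1 at 10.04 against 5.46 to 6.25 and Slc4a1, the band 3 gene, at 11.37 against 5.47 to 8.39. The whole list of erythroid and megakaryocyte markers (14 of 16 measured, 10 of them highest on this array) had a mean of 8.68 against 5.50 to 6.30. The megakaryocyte genes Gp9, Itga2b and Gp1bb were not highest on it, while the megakaryocyte gene Pf4 was. The dim erythroid gene Hba-a1 was not highest on it either, at 4.07 against 3.50 to 4.45 on the other arrays. Xist, which is transcribed from the inactive X chromosome of female cells, was at 10.70 on it against 5.42 and 5.64 on the other WT arrays and 12.73 to 12.82 in N1-IC, which departs from the label male. The Y-linked gene Eif2s3y was at 10.34 on it, against 11.26 and 11.31 on the other WT arrays and 2.94 to 3.46 in N1-IC, as the label male has it. The main counts and medians of the subunit genes are therefore given with and without this array. So are single genes that moved by over 1.5 times without it among those without overlap.

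None of the 81 subunit genes passed an adjusted p of 0.05 in the limma fit over all genes, where 1 of 18194 genes (0.0055%) was called. The lowest adjusted p of a member was 0.618. At an unadjusted limma p under 0.05 there were 2 members higher in N1-IC (Cox7a1 and Cox8c) and 1 lower (Ndufs7), against 4.14% and 3.84% of all genes. The differences were small and mostly of one sign. The mean was lower in N1-IC for 58 of the 81 members (71.6%), against 47.4% of all genes. The median log2 fold change, given throughout as N1-IC minus WT, was -0.062 over the members, which is a difference of -4.20%, against 0.012 over all genes. The 3 N1-IC arrays all lay below the 3 WT arrays for 14 members (17.3%), against 6.52% of all genes, and all lay above them for 3 members (3.70%), against 8.32% of all genes. These counts describe the 6 arrays and were given no test over the list. In these bulk samples, fewer cells of a type and less RNA per cell cannot be told apart.

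**Figure D1:**
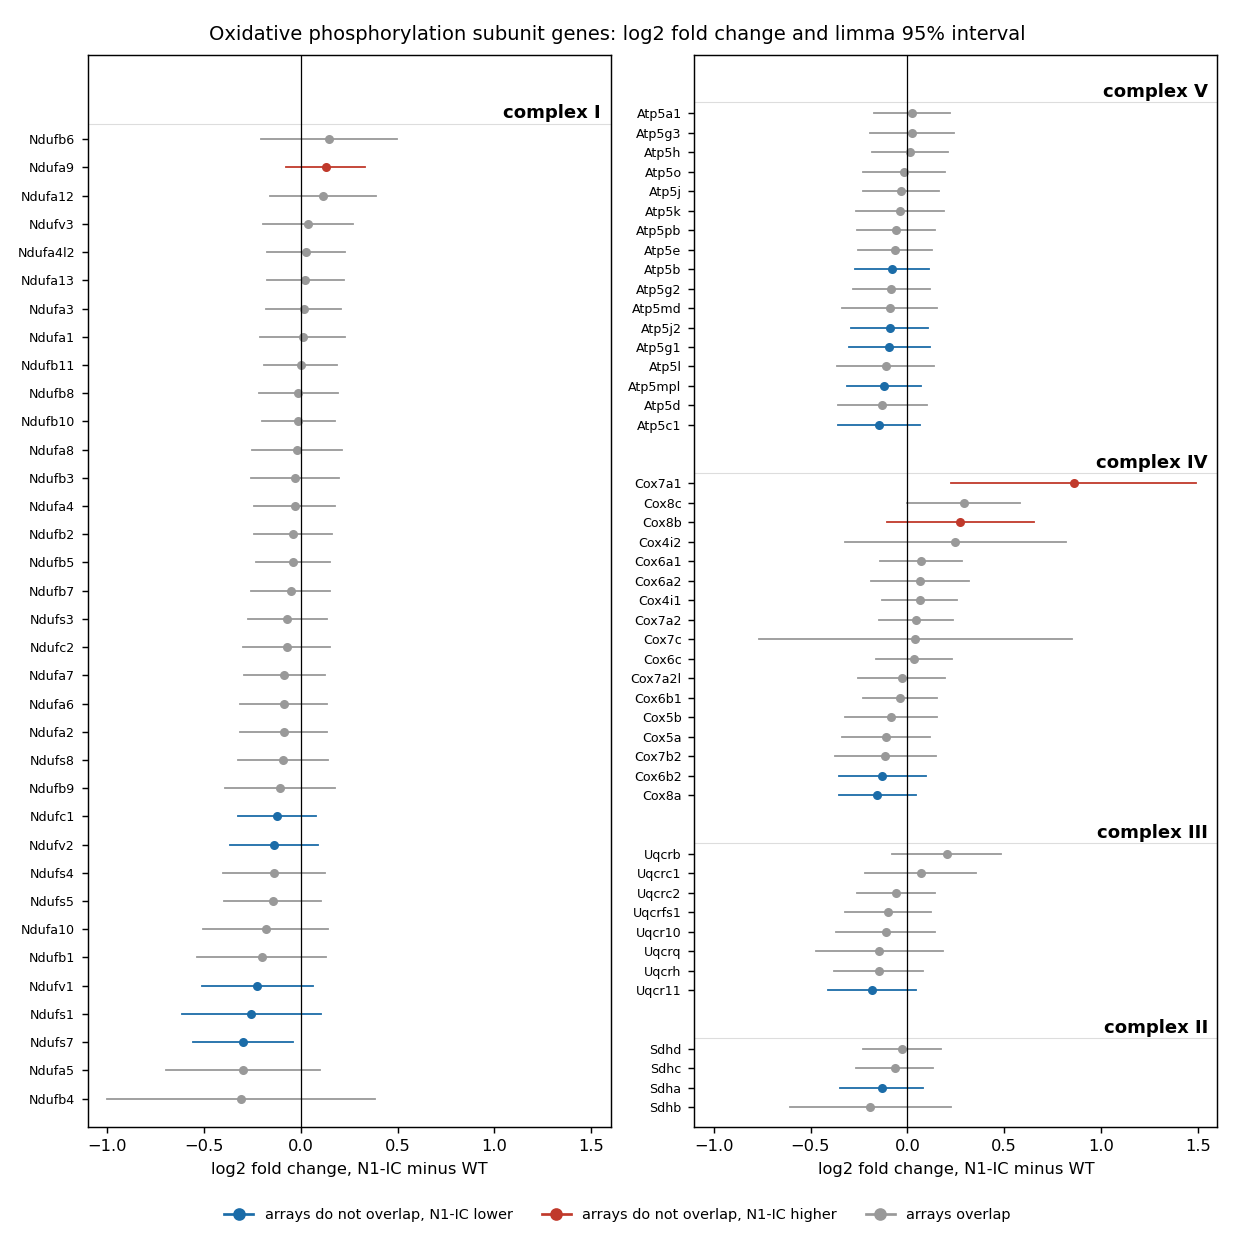
Log2 fold change (N1-IC minus WT, horizontal axis) of each of the 81 subunit genes by respiratory complex, as points with limma 95% intervals. Blue marks the 14 genes with all N1-IC arrays below all WT arrays, red the 3 with all above, and grey the genes with overlapping arrays. Most points lie left of 0 in complexes I, II, III and V, and the widest intervals belong to Cox7a1, Cox7c and Ndufb4.

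By the probe sets used, the members fell into bright and dim genes. A low level here is that of the probe set and need not be that of the gene. A mean of at least 10 log2 units was reached by 71 members, and this limit was chosen after the levels were seen. Among these 71 the mean was lower in N1-IC for 55 (77.5%), against 49.5% of the 4535 genes at or above that level, with a median log2 fold change of -0.069 against 0.0017. The arrays did not overlap for 14 of them on the lower side (19.7%, against 8.42%) and for 1 on the higher side, against 8.71%. At an unadjusted limma p under 0.05 there was 1 bright member lower, Ndufs7, and 0 higher, against 3.57% and 3.42% of the genes at that level. Without WT replicate 2 the mean was lower for 49 of the 71 (69.0%, against 49.7%), with a median of -0.029 against 0.0014. The arrays then did not overlap for 14 on the lower side (19.7%, against 12.4%) and 4 on the higher side (5.63%, against 11.7%). The other 10 members were Ndufa4l2, Ndufb1, Ndufb4, Cox4i2, Cox6a2, Cox7a1, Cox7b2, Cox7c, Cox8b and Cox8c. Of these, 7 had a higher mean in N1-IC and 3 a lower one. Ndufb4, Cox7b2 and Cox8b were below the array's median on all 6 arrays, and no detection calls were used, so how far such values stand above background is unknown.

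Promoter sequences were examined because the members share known regulators. RefSeq windows of 300 bases (GRCm38.p6, 250 before to 50 after the start) were found for 66 of the 81 members. Exact matches on either strand were sought for 1 form of each of 3 motifs, GCATGCGC for NRF1, CCGGAAGT for the ETS family that includes GABP, and AAGATGGC for YY1. The NRF1 motif was in 9 members (13.6%), against 3.05% of 27025 genes with a window and 7.43% of measured genes at or above 10 log2 units. The YY1 motif was likewise in 9 members (13.6%), against 3.19% and 6.66%. The ETS motif was in 5 members (7.58%), against 4.31% and 11.2%. Of the 12 members with a window that were lower without overlap, 1 held the NRF1 motif, 2 the ETS motif and 3 the YY1 motif. None of the motifs was in any of the 6 dim members with a window. At the shares over all genes, 6 windows are too few to tell dim members from bright ones. The windows of 3 members lower without overlap are shown for their matches, and that of Cox7a1 is shown as the member with the largest difference and no match. Each is printed 5′ to 3′ on the gene's strand from 250 bases before the start to 30 after it, with matches in capitals.
Uqcr11 (a small subunit of complex III; chr10:80406792-80407071, minus strand; capitals mark the ETS and then the NRF1 motif): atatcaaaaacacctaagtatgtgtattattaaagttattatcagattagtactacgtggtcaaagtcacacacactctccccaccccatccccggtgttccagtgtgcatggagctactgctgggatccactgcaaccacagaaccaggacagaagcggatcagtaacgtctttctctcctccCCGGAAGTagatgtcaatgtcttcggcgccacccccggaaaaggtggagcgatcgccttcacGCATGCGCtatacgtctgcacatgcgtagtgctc
Cox8a (the common isoform of a complex IV subunit; chr19:7217587-7217866, minus strand; capitals mark the ETS motif read on the other strand): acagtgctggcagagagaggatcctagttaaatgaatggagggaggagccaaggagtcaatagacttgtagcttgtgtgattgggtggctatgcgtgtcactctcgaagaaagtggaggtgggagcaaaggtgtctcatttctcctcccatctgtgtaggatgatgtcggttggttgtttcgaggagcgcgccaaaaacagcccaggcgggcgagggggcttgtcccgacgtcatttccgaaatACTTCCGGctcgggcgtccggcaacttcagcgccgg
Ndufc1 (a complex I accessory subunit; chr3:51408926-51409205, minus strand; capitals mark the YY1 motif): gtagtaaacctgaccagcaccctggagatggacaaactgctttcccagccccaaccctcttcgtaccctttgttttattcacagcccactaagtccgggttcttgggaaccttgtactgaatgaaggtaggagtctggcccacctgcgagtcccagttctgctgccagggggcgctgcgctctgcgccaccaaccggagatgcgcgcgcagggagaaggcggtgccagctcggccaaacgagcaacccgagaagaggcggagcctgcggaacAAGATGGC
Cox7a1 (the heart and skeletal muscle isoform of a complex IV subunit; chr7:30183921-30184200, plus strand; no match): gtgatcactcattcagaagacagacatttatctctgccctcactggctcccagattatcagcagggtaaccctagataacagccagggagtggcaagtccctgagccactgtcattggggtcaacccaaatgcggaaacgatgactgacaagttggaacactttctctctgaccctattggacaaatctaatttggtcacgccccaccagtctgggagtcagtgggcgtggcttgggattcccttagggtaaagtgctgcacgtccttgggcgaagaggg

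Complex I, the NADH dehydrogenase, had 27 of 35 members with a lower mean in N1-IC and 8 with a higher one, and a median log2 fold change of -0.069. The arrays did not overlap for 5 on the lower side (14.3%, against 6.52% of all genes) and for 1 on the higher side (2.86%, against 8.32%). Ndufs7 encodes a core subunit that carries an iron-sulphur cluster next to the ubiquinone site. Its log2 intensity was 12.71, 12.89 and 12.58 in WT and 12.41, 12.47 and 12.42 in N1-IC. Every N1-IC array was below every WT array, and the WT arrays were the more spread. The log2 fold change was -0.30 ± 0.11 (SE, 95% interval -0.55 to -0.037, limma unadjusted p = 0.0310, adjusted p = 0.618).

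Ndufv1 encodes the flavoprotein core subunit that takes electrons from NADH. It was at 11.28, 11.62 and 11.30 in WT and at 11.15, 11.16 and 11.22 in N1-IC, a log2 difference of -0.22 ± 0.12 (limma adjusted p = 0.632). Ndufs1, which encodes the largest core subunit, was at 10.27, 10.74 and 10.30 against 10.21, 10.12 and 10.23 (-0.25 ± 0.15, limma adjusted p = 0.645). For both genes WT replicate 2 was well above the other WT arrays, which lay just above the N1-IC arrays, and without it the log2 fold changes were -0.11 and -0.10. Ndufv2, a core subunit with an iron-sulphur cluster, was at 11.88, 12.05 and 11.86 against 11.82, 11.74 and 11.82 (-0.14 ± 0.09, limma adjusted p = 0.668), and at -0.075 without WT replicate 2. The core subunit genes Ndufs3 and Ndufs8 had overlapping arrays and log2 fold changes of -0.069 and -0.093, or -0.050 and -0.033 without that array. All 6 core subunit genes measured thus had a lower mean in N1-IC and 4 did not overlap, where 8.42% of genes at or above 10 log2 units lay lower without overlap. Their median log2 fold change was -0.18. Of the 29 accessory subunit genes, 21 had a lower mean, with a median of -0.040. The division into core and accessory subunits was made after the values were seen, and without WT replicate 2 these medians were -0.088 and -0.0078.

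Among the accessory subunit genes, Ndufc1 was at 12.36, 12.46 and 12.34 in WT and 12.25, 12.26 and 12.30 in N1-IC, a log2 difference of -0.12 ± 0.08 (limma adjusted p = 0.667). Ndufa9, which lies at the joint between the membrane and matrix arms, went the other way. It was at 11.95, 11.94 and 12.00 in WT and 12.15, 12.02 and 12.11 in N1-IC (0.13 ± 0.08, limma adjusted p = 0.664), again without overlap. Ndufb6 had the highest log2 fold change of the complex (0.15 ± 0.14), but WT replicate 3 at 11.65 was above all N1-IC arrays. The lowest belonged to Ndufb4 (-0.31 ± 0.29), a dim gene whose interval reached up to 0.38, and to Ndufa5 (-0.30 ± 0.16), which was at 11.18, 11.57 and 11.26 against 10.79, 11.25 and 11.09 and had -0.18 without WT replicate 2. Both had overlapping arrays. The X-linked members Ndufa1 and Ndufb11, relevant because the groups differ in sex, had log2 fold changes of 0.0098 and -0.0010. Ndufa4 is counted here by its symbol, although its protein is now placed in complex IV. Its log2 fold change was -0.032, and that of its dim paralogue Ndufa4l2, known as a hypoxia-induced gene, was 0.026.

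Complex II, the succinate dehydrogenase that also works in the tricarboxylic acid cycle, had a lower mean in N1-IC for all 4 members, with a median log2 fold change of -0.099. Sdha, the flavoprotein that oxidises succinate, was at 11.65, 11.76 and 11.59 in WT and 11.56, 11.56 and 11.48 in N1-IC. Its arrays did not overlap, and the log2 fold change was -0.13 ± 0.09 (limma adjusted p = 0.667), or -0.087 without WT replicate 2. Sdhb, the iron-sulphur subunit, had the lowest value (-0.19 ± 0.17), with 10.78, 11.24 and 10.60 in WT against 10.65, 10.72 and 10.68. The WT spread of Sdhb spanned the N1-IC arrays, and its log2 fold change was -0.0068 without WT replicate 2. The membrane anchor genes Sdhc and Sdhd had -0.067 and -0.026, with overlapping arrays.

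Complex III, the cytochrome bc1 complex, had a lower mean for 6 of 8 members and a median of -0.11. Uqcr11 was at 11.66, 11.87 and 11.74 in WT and 11.60, 11.52 and 11.59 in N1-IC. These arrays did not overlap, and the log2 fold change was -0.18 ± 0.09 (95% interval -0.41 to 0.043, limma adjusted p = 0.629). Uqcrh, Uqcrq, Uqcr10, Uqcrfs1 (the Rieske iron-sulphur protein) and the core protein gene Uqcrc2 had log2 fold changes from -0.15 to -0.060 with overlapping arrays. Uqcrb, a subunit near the ubiquinone site, had the highest value of the complex (0.20 ± 0.12). It was at 13.10, 13.10 and 13.42 in WT and 13.44, 13.38 and 13.41 in N1-IC, so WT replicate 3 lay among the N1-IC arrays. The other core protein gene, Uqcrc1, had 0.069.

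Complex IV, cytochrome c oxidase, was the one complex with more members higher (10) than lower (7) in N1-IC and a median above 0, at 0.042. Among its 10 bright members 6 were lower and the median was -0.034, or -0.022 without WT replicate 2. The sign of the complex's median thus rested on 7 dim genes. Many of its subunits have isoform pairs, one common and one restricted to particular tissues. Cox7a1 was at 4.36, 4.90 and 5.04 in WT and 6.08, 5.44 and 5.34 in N1-IC, without overlap. Its log2 fold change of 0.86 ± 0.26, or 1.81-fold (95% interval 0.23 to 1.49, unadjusted p = 0.0157, limma adjusted p = 0.618), was the largest of the 81 members. The gene has 1 probe set here and lies below the median log2 intensity of the arrays on 5 of them.

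The common isoform Cox7a2 had a log2 fold change of 0.045 and Cox7a2l, whose protein joins complexes III and IV, had -0.030, both with overlapping arrays. Cox8a was at 12.14, 12.16 and 12.06 in WT and 11.96, 11.93 and 11.99 in N1-IC, a log2 difference of -0.16 ± 0.08 (95% interval -0.35 to 0.042, limma adjusted p = 0.632). All N1-IC arrays of Cox8a were below all WT arrays. The tissue-restricted isoform genes were dim and went the other way. Cox8b, of heart and skeletal muscle, was at 5.49, 4.96 and 5.43 against 5.49, 5.61 and 5.60 (0.27 ± 0.16, limma adjusted p = 0.644, and 0.11 without WT replicate 2), where the highest WT and lowest N1-IC array were equal after rounding. Cox8c, of testis, was at 5.43, 5.44 and 5.65 against 5.88, 5.62 and 5.89 (0.29 ± 0.12, limma adjusted p = 0.618), with an overlap.

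Cox6b2, known as a testis isoform, was bright here and without overlap, at 12.80, 12.65 and 12.59 in WT and 12.56, 12.50 and 12.59 in N1-IC. Its log2 fold change was -0.13 ± 0.09 (limma adjusted p = 0.674), and WT replicate 3 and N1-IC replicate 3 were equal after rounding. The common Cox6b1 had -0.039. Cox4i1 and Cox6a1, the common isoforms of their pairs, had 0.063 and 0.071, and their restricted partners Cox4i2 and Cox6a2 had 0.25 and 0.066. Arrays of these 5 genes overlapped. The remaining members were Cox5a, Cox5b, Cox6c, Cox7b2 and Cox7c. Their log2 fold changes ran from -0.11 to 0.042, and Cox7c had the widest interval of the complex's overlapping genes, from -0.77 to 0.85.

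Complex V, the ATP synthase, had 14 of 17 members with a lower mean in N1-IC (82.4%, against 49.5% of genes at or above 10 log2 units, where all 17 lie). The median was -0.080, and 5 members were lower without overlap (29.4%, against 8.42%). Of the catalytic F1 part, Atp5c1, the central stalk gene, was at 13.20, 13.25 and 13.08 in WT and 13.04, 12.99 and 13.05 in N1-IC (-0.15 ± 0.09, limma adjusted p = 0.648). Atp5b, the catalytic beta subunit, was at 12.79, 12.82 and 12.74 against 12.74, 12.67 and 12.69 (-0.080 ± 0.079, limma adjusted p = 0.744). Neither gene overlapped, although for Atp5b the closest arrays were equal after rounding. The alpha subunit gene Atp5a1 had 0.025, so the pair that forms the catalytic hexamer differed in sign, with each interval including 0.

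Of the membrane part, Atp5mpl was at 12.65, 12.69 and 12.64 in WT and 12.51, 12.54 and 12.57 in N1-IC, a log2 difference of -0.12 ± 0.08 (limma adjusted p = 0.662). Atp5j2 was at 13.12, 13.17 and 13.09 against 13.02, 13.00 and 13.09 (-0.091 ± 0.081, limma adjusted p = 0.717). Atp5g1, Atp5g2 and Atp5g3 encode the same mature c subunit of the rotor ring. Atp5g1 was at 12.94, 13.07 and 12.93 against 12.89, 12.85 and 12.92 (-0.093 ± 0.086, limma adjusted p = 0.729), and had -0.047 without WT replicate 2. Atp5g1, Atp5j2 and Atp5mpl did not overlap, whereas Atp5g2 (-0.084) and Atp5g3 (0.023) did. The remaining members lay between -0.13 (Atp5d, the delta subunit) and 0.012 (Atp5h), and all overlapped.

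**Figure D2:**
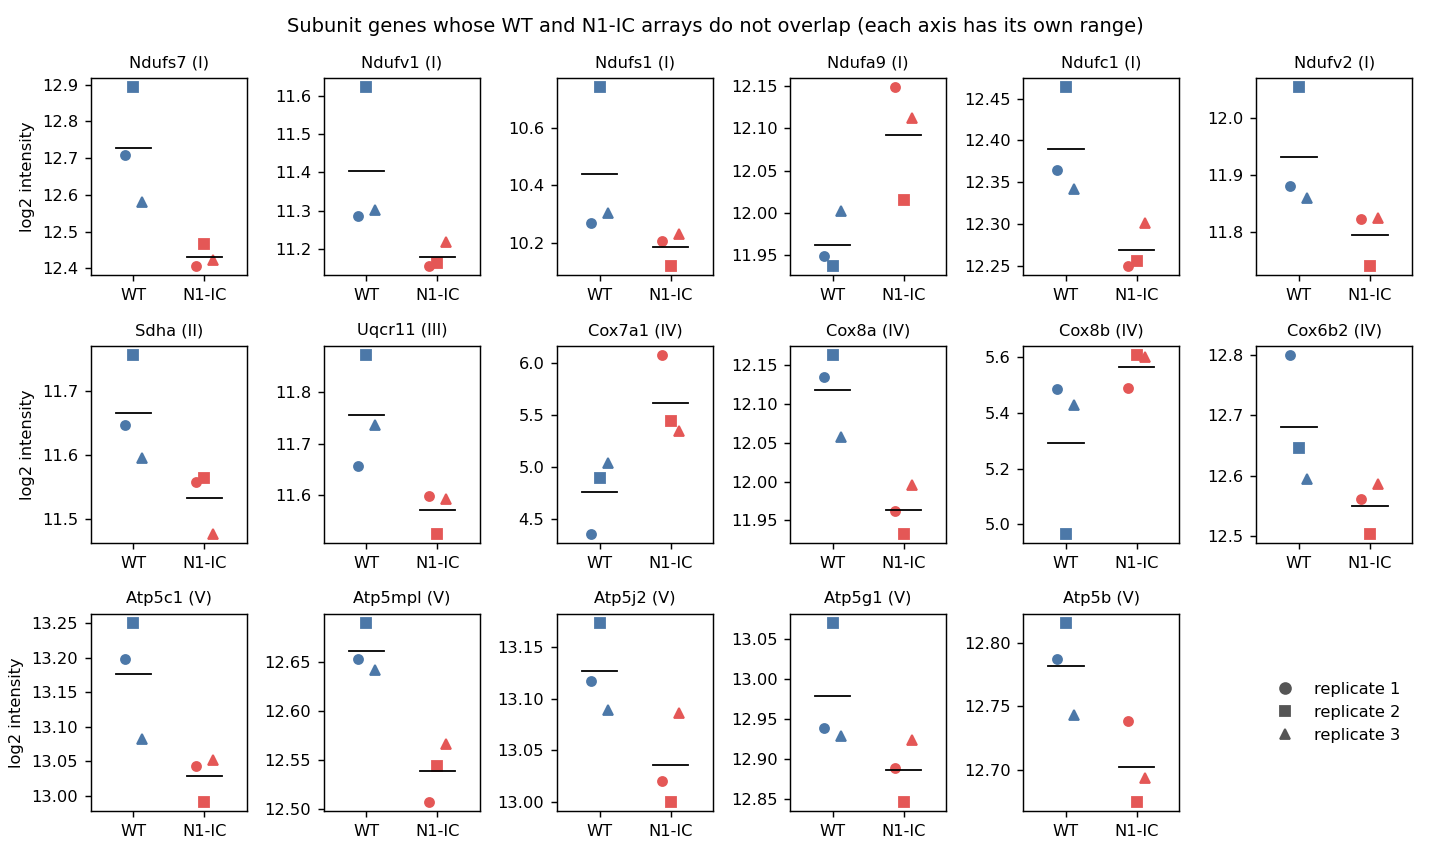
Log2 intensity on each array (vertical axes, each with its own range) for the 17 subunit genes whose WT (blue) and N1-IC (red) arrays do not overlap, with the complex in brackets. Circles, squares and triangles are replicates 1, 2 and 3, and lines are group means. The square of WT replicate 2 is the highest point in most panels where N1-IC is lower.

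The members were high on the array of WT replicate 2. That array held the highest of the 6 values for 48 of the 81 members (59.3%), against 18.9% of all genes. Of the mitochondrial ribosomal protein genes 46 of 76 (60.5%) were highest on that array, 81.6% had a lower mean in N1-IC and 21.1% were lower without overlap, so the pattern was not limited to the subunit genes. The members' median deviation from each gene's mean over the 6 arrays was 0.073 on it. On WT replicates 1 and 3 it was -0.012 and -0.0016, and on the N1-IC arrays -0.033, -0.032 and -0.014. By complex the median deviation on WT replicate 2 was 0.072 in complex I, 0.12 in II, 0.17 in III, -0.032 in IV and 0.089 in V. Of the 14 members lower without overlap, WT replicate 2 was the highest array for 13. Genes picked for no overlap keep a lower mean when an array is left out, so only the size could change. Without WT replicate 2 the log2 fold changes of these 14 ran from -0.21 to -0.047. Those of 5 (Ndufs1, Ndufv1, Ndufv2, Sdha and Atp5g1) moved by over 1.5 times. Erythroid genes were high on that same array, and their part in these differences was not tested.

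**Figure D3:**
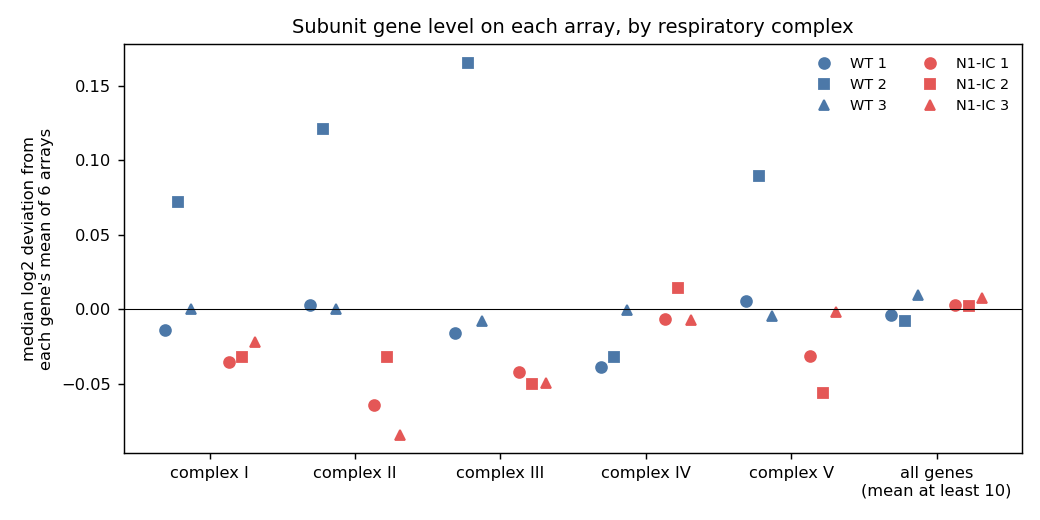
Median over the genes of each complex of the log2 deviation from the gene's mean over the 6 arrays (vertical axis), for each array. WT replicate 2 (blue square) lies at 0.072 to 0.17 in complexes I, II, III and V and at -0.032 in complex IV, while all genes with a mean of at least 10 log2 units lie near 0 on every array.

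**Figure D4:**
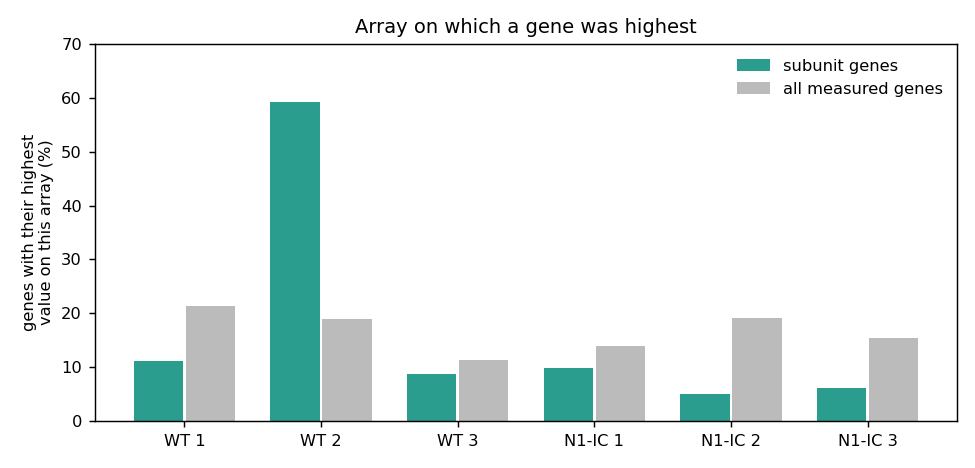
Share of genes (vertical axis, percent) with their highest value on each of the 6 arrays, for the 81 subunit genes (green) and all 18194 genes (grey). WT replicate 2 holds 59.3% of the subunit genes and 18.9% of all genes.

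Without WT replicate 2 the median over the 81 members was -0.025, a difference of -1.72%, and 53 (65.4%) had a lower mean, against 48.3% of all genes. The complex medians were then -0.015 for I, -0.032 for II, -0.049 for III, 0.040 for IV and -0.051 for V. A lower mean was found for 23 of 35 members in I, 4 of 4 in II, 6 of 8 in III, 8 of 17 in IV and 12 of 17 in V. Over all 81 members the count without overlap on the lower side, which cannot fall when an array is left out, was 14 (17.3%). The same comparison of 2 against 3 arrays gave 10.4% of all genes. On the higher side the count was 7 (8.64%, against 12.4%). Leaving out each of the other arrays in turn gave medians of -0.080 to -0.049. Other lists moved between arrays too. Late granulocyte genes (11 of 15 measured) had means of 7.47, 10.24 and 9.74 in WT and 10.17, 10.44 and 9.92 in N1-IC, with all 11 higher in N1-IC by their means. Mast cell, basophil and eosinophil genes (11 of 12) ran from 7.27 to 8.57 in WT and from 7.11 to 8.20 in N1-IC. Lymphoid genes (10 of 13) had list means of 5.13 to 5.35, with the B lineage gene Cd79b at 10.92 to 11.47, and the part of these cell types was not tested.

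The precision of single members was limited by 3 arrays a group. The median SD over members was 0.086 in WT and 0.045 in N1-IC, and the WT spread was the larger for 58 of 81 (71.6%), against 59.4% of all genes. Without WT replicate 2 the median WT SD was 0.050. The 95% intervals had a median width to each side of 0.22, and 68 of 81 lay wholly within 0.5 log2 units of 0. For the bright members this was 65 of 71, and the intervals of all 71 lay between -0.69 and 0.50. Small differences of single genes within these limits were not resolved, and an adjusted p above the threshold does not show that the groups were alike.

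Other probe sets of the same genes gave a partial repeat of the signs. The 81 members had 164 probe sets with a single symbol, and 48 members had more than 1. Of the 83 probe sets not used above, 54 had the sign of the used one and 29 the opposite. Over all 164 the median log2 fold change was -0.056, 110 were lower and none passed. The largest in size, -0.90, belonged to an unused dim probe set of Ndufs4 with a mean of 4.76. In the limma fit over all single-symbol probe sets its unadjusted p was 0.0015 and its adjusted p 0.531. The used probe set of Ndufs4 had -0.14 with overlapping arrays. Among the 83 unused probe sets the arrays did not overlap for 12 on the lower and 5 on the higher side. The lower ones were in Ndufs4, Ndufs7, Ndufs8, Ndufv1, Ndufv2, Ndufa7, Ndufb2, Cox8a, Atp5h and Atp5k. The higher ones were in Ndufs8, Uqcr10, Sdhc, Atp5o and Atp5a1. The share over the unused probe sets of all genes was not computed, so neither count is read as an excess. The higher probe sets of Ndufs8, Uqcr10, Sdhc and Atp5o had log2 fold changes of 0.23, 0.39, 0.21 and 0.079, of the opposite sign to the probe sets used. That of Ndufs8 was dim, with a mean of 7.70. Brighter unused probe sets of Ndufs8, with means of 11.33 and 11.69, were lower without overlap, at -0.15 and -0.13. The other probe set of Ndufs7 was also lower without overlap. For Ndufv1 and Cox8a both other probe sets were lower, 1 of them without overlap in each gene, and for Sdha all 3 others were lower but overlapped. The other probe set of Atp5g1 had the opposite sign, and of the 2 others of Atp5j2 1 was higher. Probe sets shared with gene copies or neighbours, as for Ndufb4 and Ndufs5, carry several symbols and were left out.

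Genes outside the symbol rule that belong to the chain or serve it were read from lists in the same fit, and none of them passed. Among them were the subunit genes Cyc1 and Ndufab1, with log2 fold changes of -0.011 and -0.071 and overlapping arrays. Of 13 other respiratory chain genes measured (15 listed), 12 had a lower mean (92.3%, against 47.4% of all genes), with a median of -0.071. Lower without overlap were 4 (30.8%, against 6.52%). Their median level was 11.61, and among genes at or above 10 log2 units these shares were 49.5% and 8.42%. WT replicate 2 was the highest array for 6 of the 13. Cycs, the gene of cytochrome c, which carries electrons from complex III to IV, was at 12.68, 12.66 and 12.54 in WT and 12.29, 12.28 and 12.39 in N1-IC. Its arrays did not overlap, with a log2 fold change of -0.31 ± 0.09 (unadjusted p = 0.0122, limma adjusted p = 0.618), although another of its 4 probe sets was higher. Dhodh, which feeds electrons to ubiquinone from pyrimidine synthesis, had -0.44 ± 0.16, and Higd1a, a complex IV associated protein gene, -0.32 ± 0.12. Of 42 assembly factor genes 24 were lower and 18 higher, with a median of -0.069. Without overlap were 3 lower (7.14%, against 6.52% of all genes) and 2 higher (4.76%, against 8.32%). Foxred1, a complex I assembly factor, had -0.32 ± 0.13 and Bcs1l, which inserts the Rieske protein into complex III, -0.26 ± 0.12.

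Among 19 mitochondrial biogenesis regulators 10 were lower and 9 higher, with a median of -0.023. Differences above 0.5 log2 units in size were found in 3 of them, against 1360 of all 18194 genes. Without overlap were 2 lower and 2 higher (10.5% each, against 6.52% and 8.32% of all genes). Pprc1, a coactivator of the PGC-1 family, was at 9.39, 9.31 and 9.07 in WT and 8.69, 8.61 and 8.91 in N1-IC. It did not overlap, and its log2 fold change was -0.52 ± 0.13 (unadjusted p = 0.00704, limma adjusted p = 0.618). Ppargc1b, of the same family and dim here, had -0.62 ± 0.18, also without overlap. Gabpa, the DNA-binding subunit of GABP, was at 10.16, 10.27 and 10.62 in WT and 10.78, 10.98 and 10.89 in N1-IC. It was higher without overlap, at 0.54 ± 0.14 (unadjusted p = 0.00876, limma adjusted p = 0.618), and its second probe set had the same sign with overlapping arrays. Gabpb1, the gene of the partner subunit of GABP, was also higher without overlap, at 0.15 ± 0.09. Nrf1 and Tfam, which encodes a transcription factor that packages mitochondrial DNA, had -0.075 ± 0.17 and -0.16 ± 0.18, with overlapping arrays.

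Of 22 tricarboxylic acid cycle genes measured 13 were lower and 9 higher, with a median of -0.047. Idh2, the mitochondrial NADP-dependent isocitrate dehydrogenase, was at 11.82, 11.82 and 11.42 in WT and 11.16, 11.14 and 11.43 in N1-IC. The arrays overlapped through WT replicate 3 and N1-IC replicate 3, and the log2 fold change was -0.45 ± 0.15 (unadjusted p = 0.0241, limma adjusted p = 0.618), while its other probe set had the opposite sign. Pdk1, a kinase that inhibits pyruvate dehydrogenase and so limits entry of pyruvate into the cycle, was at 12.38, 12.61 and 12.60 in WT and 12.81, 12.79 and 12.79 in N1-IC. It was higher without overlap (0.27 ± 0.10, unadjusted p = 0.0324, limma adjusted p = 0.618).

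**Figure D5:**
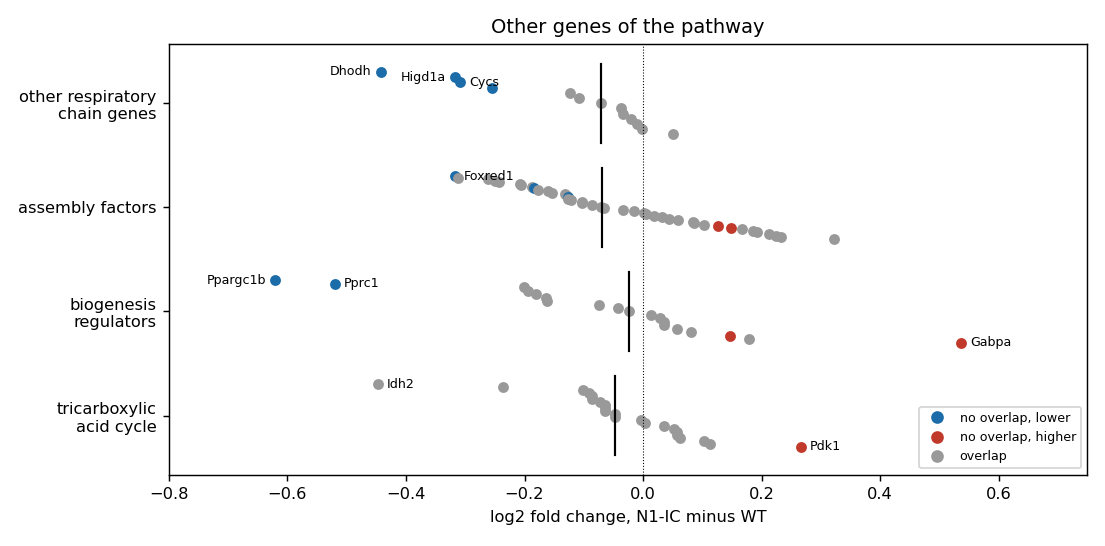
Log2 fold change (N1-IC minus WT, horizontal axis) of genes in 4 other lists of the pathway, as points, with the list median as a vertical line. Blue and red mark genes whose arrays do not overlap, lower or higher in N1-IC, and genes at an unadjusted limma p under 0.05 are named. The medians lie between -0.071 and -0.023, and Gabpa and Ppargc1b are the outermost points.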

How the data were processed

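RNA from 3 WT and 3 N1-IC sorted samples was measured, from 5 ng per sample amplified with the NuGEN Ovation system, on 1-colour Affymetrix arrays. The authors deposited 1 table of linear intensity values, normalized by RMA per the submitters' processing notes, with the version not given in the sources used here. Log2 was taken of these deposited intensities with no offset. Of 45101 probe sets 34958 had a single platform symbol, 932 several and 9211 none, and the brightest single-symbol probe set stood for each of 18194 genes.

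Groups were compared with limma 3.58.1 in R 4.3.3 (lmFit and eBayes, no covariate), with p-values adjusted by Benjamini-Hochberg over all genes and a threshold of 0.05, and the fit was tested on simulated data. Complexes follow the gene symbols. Named members are, per complex, the 2 with the smallest p and the highest and lowest log2 fold change, all without overlap, X-linked members and isoform families. From other lists, members with the smallest p were named, and Nrf1, Tfam, Cyc1 and Ndufab1 regardless of p. Further members are named to complete a complex or for their other probe sets, chosen after their values were seen. The members and lists were chosen with earlier results of these data known. Promoter windows came from RefSeq (GRCm38.p6). Alternatives covered normalization, variance model, probe set choice, level filters, X linkage and each array left out.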

Additional observations from a re-analysis of the deposited data

How the results depend on the processing

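No subunit gene passed under any alternative that was run. The number of genes called over the whole table was 1 in the limma fit, 3 with a mean-variance trend, 2 with array weights, 2 with genes under the median level left out, 5 with probe sets averaged per gene, 4 at an adjusted p under 0.1 and 0 to 5 with 1 array left out (5 without WT replicate 2, 3 without N1-IC replicate 2, 0 without WT replicate 3). The labels do not say whether same-numbered samples were paired. Their deviations from the group means correlated at 0.009, 0.061 and -0.11. With 3 arrays a group, such values cannot show whether the samples were processed together. With the number as a block 0 genes were called. The members' median log2 fold change stayed below 0, at -0.080 to -0.025 with 1 array left out, -0.083 after renewed quantile normalization, -0.048 with arrays centred, and -0.036 with probe sets averaged per gene. With 1 array left out the medians ran from -0.079 to -0.015 in complex I, -0.12 to -0.032 in II, -0.13 to -0.049 in III, 0.0092 to 0.041 in IV and -0.093 to -0.051 in V. The median of complex IV was 0.0017 with genes under the median level left out, 0.061 with probe sets averaged and -0.034 among members with a mean of at least 10 log2 units, an alternative added after the data were seen, as were the counts without overlap with 1 array left out. Of 525 values for 38 named members under alternatives 510 kept their sign and 15 reversed. With probe sets averaged Atp5g2 was 0.15, Atp5j2 0.041 and Cox6b1 0.014. With 1 array left out the range was -0.026 to 0.068 for Atp5g3, -0.069 to 0.018 for Cox7a2l, -0.041 to 0.057 for Ndufa1, -0.018 to 0.016 for Ndufb11, -0.0031 to 0.11 for Cox6a2, -0.00094 to 0.055 for Ndufa4l2 and -0.061 to 0.00029 for Sdhd. Ndufa1 was -0.0066 after renewed quantile normalization and Ndufb11 0.013 with arrays centred. The causes were not tested. The number of arrays limits the precision, and no detection calls bound the dim members.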
